A study of Mus musculus with 4 samples.

Results

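The thyroid hormone handling genes of the mouse hypothalamus are described here as 9 genes: Dio2 and Dio3, which encode deiodinases, the RNA Dio3os, the hormone-binding protein gene Crym, the transporter gene Slco1c1, the receptor genes Thra and Thrb, the thyrotropin receptor gene Tshr, and Ttr, which encodes transthyretin. They were chosen by symbol, with no measured value in the rule, but with earlier results of these data known. All 9 were found among the 35963 gene names of the count tables. The cells came from the hypothalamus of C57BL/6 mice that carry Lepr-cre and the Cre-dependent reporter Rosa-LSL-tdTomato, and were sorted for the reporter into plates of 384 wells. One group is a single plate, 1 library, of cells from mice food restricted for 24 h (fasted). The other is 3 plates from mice under the fed condition (fed 1, fed 2 and fed 3). All 4 plates carry both alleles, so the reporter marks any cell in which the Lepr promoter, which drives Cre, was ever active and does not show that a cell still makes the leptin receptor. The sources used here give neither the age and sex of the mice, nor the time of day, nor how many stand behind each plate. Nothing in the labels says that the plates came from separate mice, so the spread behind the p-values may be technical. For fasted against fed plates it is the spread among the fed plates. For contrasts between classes it is how much the class differences vary from plate to plate. With 1 fasted plate the plate and the feeding state cannot be told apart.

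Thyroid hormone reaches the brain mainly as thyroxine, which membrane transporters carry across the blood vessel wall and into glia. In the hypothalamus, tanycytes, elongated glia in the wall and floor of the third ventricle, and astrocytes are known to make the type 2 deiodinase, which removes an iodine to give the active hormone triiodothyronine. The type 3 deiodinase inactivates both hormones, and in seasonal mammals and birds the balance of these enzymes in tanycytes is set by thyrotropin from the pars tuberalis of the pituitary, acting on its receptor in tanycytes. The nuclear receptors TRα and TRβ, encoded by Thra and Thrb, bind triiodothyronine and act on target genes.

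Transcripts were counted by CEL-seq2, which tags each RNA molecule of a well with a random barcode. Wells with at least 1000 transcripts and under 30% mitochondrial transcripts were kept, which left 270 wells on the fasted plate, with a median of 9708.5 transcripts, and 356, 322 and 331 wells on the fed plates, with medians of 13507, 7750 and 8356. The 1279 kept cells were clustered without the members and related genes, so the members' levels by class were not used to form the classes. Classes were named "-like" from marker genes: 235 tanycyte-like cells, 111 astrocyte-like cells, 126 endothelial-like cells and 388 neurons, of which 196 were AgRP-like. Each plate's 10 tanycyte markers summed to 7618 CPM (counts divided by the total, times 1e6) on the fasted plate and to 8544 to 10356 CPM on fed plates, with no marker at 0, and no astrocyte, endothelial or neuron marker was at 0 in its own class. All 4 tables use the same 384 well names. Plates differed in make-up: fed 1 held 3 astrocyte-like cells, which were left out, 57 of its 72 endothelial-like cells formed a cluster of their own, and the AgRP-like neurons of the fasted plate, of fed 1, and of fed 2 and fed 3 lay mostly in 3 separate clusters. A cluster that is mostly 1 plate may reflect that plate. Xist without any Y-linked transcript was seen in 84.4% of cells on the fasted plate, against 6.74%, 51.6% and 42.0% on fed 1, fed 2 and fed 3; Y-linked transcripts without Xist were seen in 0%, against 75.6%, 25.2% and 29.6%. Levels below are CPM, the member's counts over all transcripts of the cells of a class on a plate. Intervals and floors cover counting error only.

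The promoter windows of Dio2 and Dio3os are shown because these are the members called between fasted and fed plates in tanycyte-like cells, and that of Dio3 because it is the neighbour of Dio3os. They are RefSeq sequences on GRCm38.p6, 250 bases before to 50 bases after each start, 5′ to 3′ on the gene's strand. The table of promoters was matched for 5 of the 9 members, Dio2, Dio3, Dio3os, Slco1c1 and Thrb, and none was used for Crym, Thra, Tshr and Ttr. Dio2 lies on chromosome 12, minus strand (chr12:90724552-90738438), and its window is chr12:90738989-90739288, which, by the RefSeq start, lies wholly upstream of that GENCODE span. Dio3 lies on the plus strand (chr12:110279068-110281097), with the window chr12:110278980-110279279. Dio3os, annotated as a bidirectional promoter long noncoding RNA, lies on the minus strand (chr12:110275385-110278172), 895 bases from Dio3 and read away from it, with the window chr12:110278019-110278318. Capitals mark the letters TGACGTCA, in which the cyclic AMP response element core TGACG is read on both strands, so that the 2 matches overlap.
Dio2: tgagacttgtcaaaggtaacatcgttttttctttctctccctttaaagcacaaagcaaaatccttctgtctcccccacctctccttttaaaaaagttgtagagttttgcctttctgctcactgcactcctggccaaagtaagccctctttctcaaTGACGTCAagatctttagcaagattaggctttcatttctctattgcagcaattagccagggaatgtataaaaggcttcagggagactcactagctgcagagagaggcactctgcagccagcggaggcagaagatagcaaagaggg
Dio3: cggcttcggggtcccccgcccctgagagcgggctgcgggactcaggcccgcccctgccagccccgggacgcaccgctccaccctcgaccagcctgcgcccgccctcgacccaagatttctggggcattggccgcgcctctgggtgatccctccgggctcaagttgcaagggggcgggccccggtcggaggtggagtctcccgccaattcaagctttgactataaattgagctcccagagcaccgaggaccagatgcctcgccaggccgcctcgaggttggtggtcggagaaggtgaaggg
Dio3os: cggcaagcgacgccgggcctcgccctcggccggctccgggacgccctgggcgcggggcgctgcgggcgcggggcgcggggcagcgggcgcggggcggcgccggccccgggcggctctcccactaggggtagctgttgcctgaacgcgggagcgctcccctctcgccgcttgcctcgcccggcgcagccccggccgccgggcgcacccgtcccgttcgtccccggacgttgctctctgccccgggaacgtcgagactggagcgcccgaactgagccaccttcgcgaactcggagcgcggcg
The core begins 95 bases before the RefSeq start of Dio2. Over 32851 promoter windows of the same length, 20.8% held TGACG on either strand and 1.79% held TGACGTCA. The windows of Dio3 and Dio3os held neither TGACG nor the nuclear receptor sequence AGGTCA, which 16.3% of all windows held on either strand. The GC content was 44.7% for Dio2, 69% for Dio3 and 80% for Dio3os, against a median of 52.7% over all windows. A match is a description of the letters and not of binding.

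**Figure D1:**
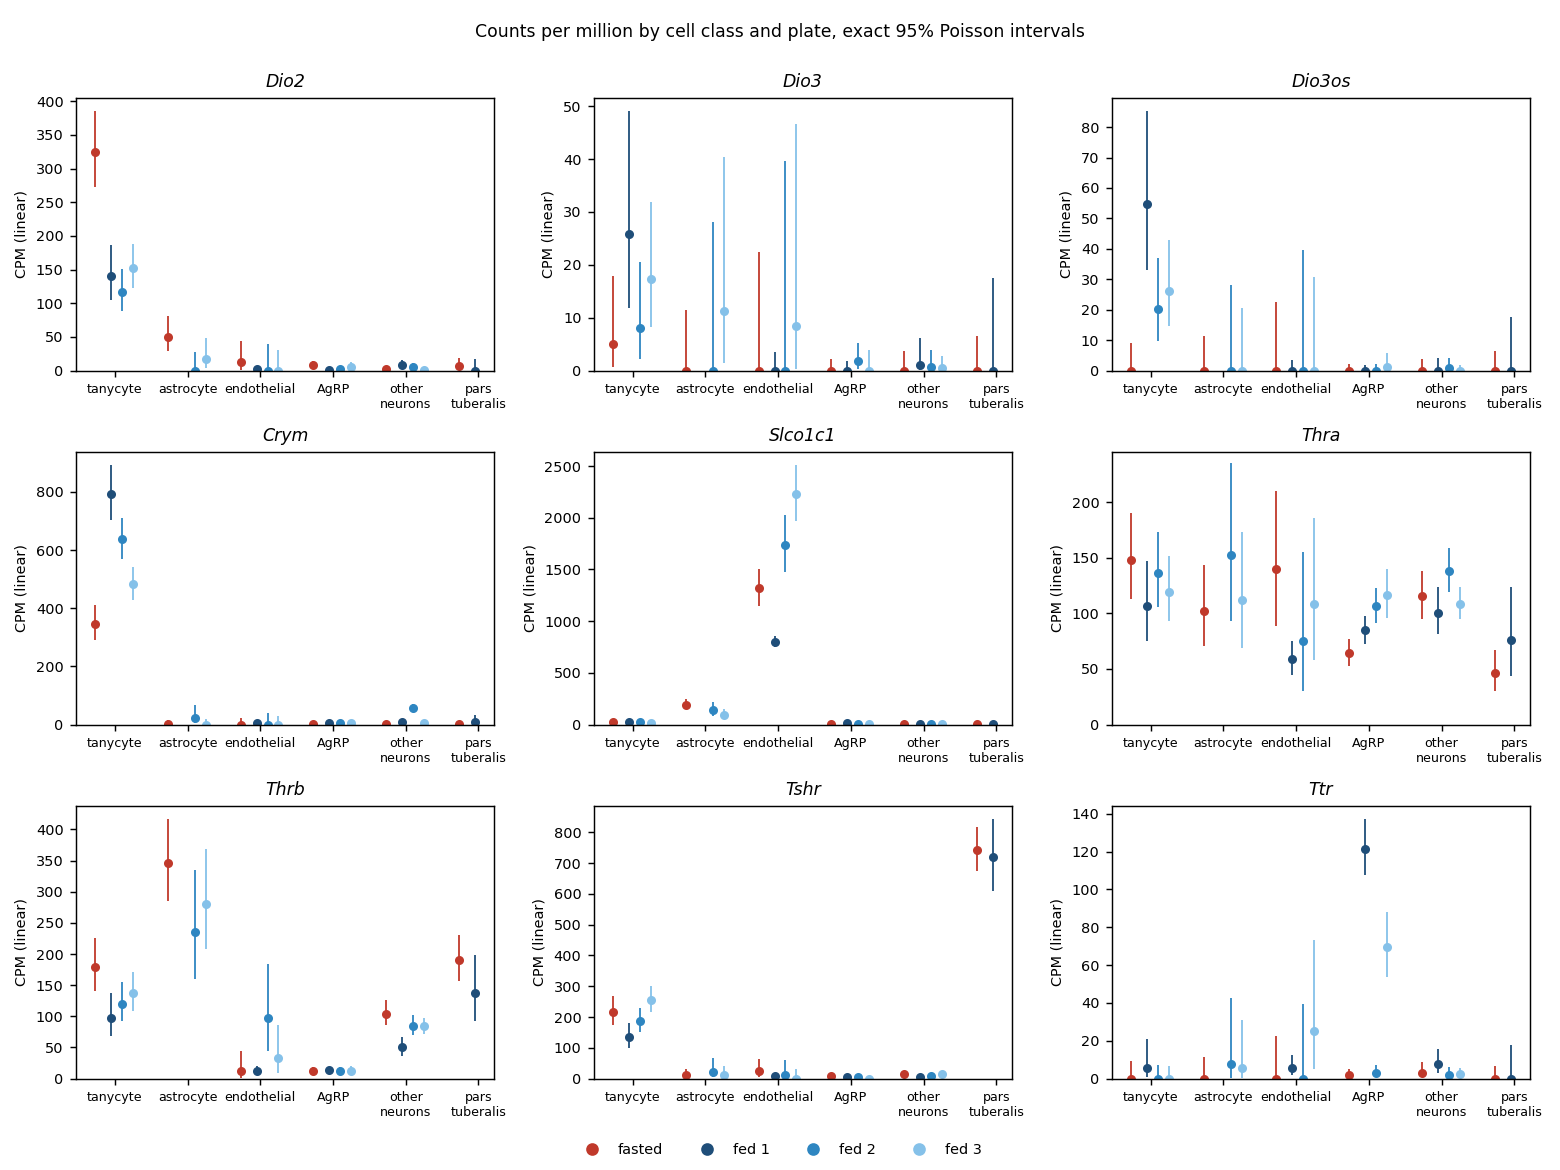
Level of each of the 9 genes in CPM (linear axis, a separate scale for each gene) by cell class and plate. Points are plates, fasted in red and fed in blue, bars are exact 95% Poisson intervals, and plates with under 10 cells of a class are left out; Dio2 and Crym peak in tanycyte-like cells, Slco1c1 in endothelial-like cells and Tshr in pars tuberalis-like cells.

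Dio2, the activating deiodinase, was highest in tanycyte-like cells and next, among the 4 main classes, in astrocyte-like cells. In tanycyte-like cells its level was 325 CPM on the fasted plate, against 141, 116 and 153 CPM on fed 1, fed 2 and fed 3. In astrocyte-like cells it was 49.5 CPM on the fasted plate, against 0 and 16.8 CPM on fed 2 and fed 3. All 4 tanycyte-like values lay above all 3 astrocyte-like values. Endothelial-like cells had 12.2 CPM on the fasted plate, against 1.93, 0 and 0 CPM on the fed plates. These came from 2 counts on the fasted plate and 2 on fed 1, each under the floor of 3 counts. Neurons had 6.24 CPM on the fasted plate, against 2.92, 3.56 and 2.63 CPM. In 1 joint fit of the 4 classes with plate as a block (edgeR quasi-likelihood test, Benjamini-Hochberg adjustment over 10768 genes), tanycyte-like cells exceeded astrocyte-like cells by a log2 fold of 2.77 (SE 0.38, adjusted p = 3.76e-07), endothelial-like cells by 5.57 (SE 0.47, adjusted p = 4.7e-12) and neurons by 5.47 (SE 0.27, adjusted p = 2.86e-18). Astrocyte-like cells exceeded endothelial-like cells by 2.80 (SE 0.74, adjusted p = 0.00265) and neurons by 2.70 (SE 0.51, adjusted p = 3.11e-05), but both calls were lost without the fasted plate (adjusted p = 0.195 and 0.217; over all alternatives 0.002 to 0.195 and 1.54e-07 to 0.217). A Dio2 transcript was found in 42.1% of tanycyte-like cells (exact 95% interval 35.7 to 48.7%, median 6917 transcripts), against 3.17% of endothelial-like cells (median 9419.5 transcripts). Thinned to 1000 transcripts per cell, those shares were 11.5% and 0%.

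Dio3, the inactivating deiodinase, was scarce, with 38 counts in 27 of the 1279 cells. Its tanycyte-like level was 4.93 CPM on the fasted plate, against 25.9, 8.02 and 17.3 CPM on the fed plates, from 2 counts and from 9, 4 and 10 counts. The counting intervals of these plates overlap. Dio3os had 0 counts in tanycyte-like cells of the fasted plate, against 19, 10 and 15 counts on the fed plates, or 54.6, 20.1 and 26.0 CPM. It had no count in astrocyte-like or endothelial-like cells. Dio3os was set against the level that 3 counts over all plates would give. Pooled in that way, it was at least 5.16-fold higher in tanycyte-like than in astrocyte-like cells and at least 11.3-fold higher than in endothelial-like cells. The fasted plate, with 0 tanycyte-like counts, gave 323309 astrocyte-like transcripts, against 10352, 131560 and 178704 on the fed plates. These folds are therefore not bounds for a single plate. In the 3 alternatives that tested it, the adjusted p against astrocyte-like cells was 0.0353 to 0.177 (edgeR quasi-likelihood test). Of the 235 tanycyte-like cells, 6 held both Dio3 and Dio3os, 10 held Dio3 alone and 22 held Dio3os alone. Dio3, Dio3os and Ttr were too low for the joint fit, so 6 of the 9 members were tested between classes.

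Crym encodes mu-crystallin, a cytosolic protein that binds triiodothyronine. In tanycyte-like cells it stood at 348 CPM on the fasted plate, against 794, 638 and 482 CPM on the fed plates. The fasted plate was the lowest. Crym was at most 22.8 CPM on any plate in astrocyte-like cells and 5.78 CPM in endothelial-like cells. Tanycyte-like cells exceeded astrocyte-like cells by a log2 fold of 6.09 (SE 0.84, adjusted p = 0.000275), endothelial-like cells by 7.01 (SE 0.75, adjusted p = 1.63e-05) and neurons by 6.12 (SE 0.46, adjusted p = 5.71e-07). Of the tanycyte-like cells, 64.7% held Crym. Among neurons outside the AgRP-like class, fed 2 stood apart with 55.6 CPM, from 78 counts in 7 of 53 cells, while the fasted plate had 2.98 CPM and fed 1 and fed 3 had 7.65 and 3.84 CPM.

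Slco1c1 encodes OATP1C1, a thyroxine transporter of brain vessels and, in rodents, of astrocytes. Endothelial-like cells had 1321 CPM on the fasted plate, against 799, 1737 and 2226 CPM on the fed plates. On fed 1 the cluster found only on that plate had 674 CPM, and the other 15 endothelial-like cells had 2231 CPM. The 8 markers of vascular leptomeningeal cells (VLMC) summed to 97.4 CPM in endothelial-like cells of the fasted plate, against 4811 CPM on fed 1, of which Dcn had 4354 CPM, and 193 and 285 CPM on fed 2 and fed 3, and their part in the fed 1 value was not tested. Astrocyte-like cells had 192 CPM on the fasted plate, against 137 and 95.1 CPM on fed 2 and fed 3. Tanycyte-like cells had 24.6 CPM on the fasted plate, against 20.1, 22.1 and 13.9 CPM. The classes therefore did not overlap, with endothelial-like plates highest, astrocyte-like plates next and tanycyte-like plates below both. Endothelial-like cells exceeded neurons by a log2 fold of 8.33 (SE 0.57, adjusted p = 6.53e-07). Tanycyte-like cells lay below endothelial-like cells by a log2 fold of -6.34 (SE 0.57, adjusted p = 9.07e-06), and astrocyte-like cells did by -3.22 (SE 0.55, adjusted p = 0.00111). Astrocyte-like cells exceeded neurons by 5.11 (SE 0.68, adjusted p = 0.000153). Tanycyte-like cells were lower than astrocyte-like cells by a log2 fold of -3.12 (SE 0.70, adjusted p = 0.00901), a call lost without the fasted plate (adjusted p = 0.154; over all alternatives 1.1e-10 to 0.154). The fold of tanycyte-like cells over neurons, 1.99 (SE 0.77), missed the threshold at an adjusted p of 0.0531 and passed it under 5 alternatives (range 5.32e-07 to 0.228).

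Some of the Slco1c1 counts lay in other classes. Smooth muscle-like cells had 752 and 425 CPM on fed 1 and fed 3, the plates with at least 10 such cells. The 10 endothelial markers summed to 12240 CPM in the larger smooth muscle-like cluster, against 18837 CPM and 11615 CPM in the endothelial-like clusters, and their part in the Slco1c1 level was not tested. The unnamed cluster 19, of 26 cells, had 519 Slco1c1 counts, or 1292 CPM, with 18755 CPM of the endothelial markers, and the unnamed cluster 22, of 22 cells, had 654 CPM, with 7015 CPM of those markers. AgRP-like neurons of fed 1 had 12.9 CPM, from 28 counts, where the endothelial markers summed to 332 CPM, and the other plates' sums were 84.4 CPM on the fasted plate and 74.9 and 131 CPM on fed 2 and fed 3. After thinning, 0.51% of AgRP-like neurons, 1.70% of tanycyte-like cells, 12.6% of astrocyte-like cells and 62.7% of endothelial-like cells held Slco1c1.

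Thra, the gene of the receptor TRα, was spread over all main classes at like levels. Tanycyte-like cells had 148 CPM on the fasted plate, against 106, 136 and 120 CPM on the fed plates. Astrocyte-like cells had 102 CPM on the fasted plate, against 152 and 112 CPM, and endothelial-like cells 140 CPM, against 58.8, 75.1 and 109 CPM. Neurons had 82.9 CPM on the fasted plate, against 89.4, 121 and 111 CPM. The plates of these classes overlap. No contrast between classes passed the threshold, with log2 folds of -0.06 to 0.38 and adjusted p of 0.216 to 0.907. Microglia-like cells of the fasted plate had 1 count, or 8.28 CPM. Thra shares 1075 bases with Nr1d1 on the opposite strand. No source used here gives the strand setting of the counting, so whether reads from the overlap were kept apart is not known.

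Thrb, the gene of TRβ, differed more by class. Astrocyte-like cells had 346 CPM on the fasted plate, against 236 and 280 CPM on fed 2 and fed 3. Tanycyte-like cells had 180 CPM on the fasted plate, against 97.8, 120 and 137 CPM. Every astrocyte-like plate lay above every tanycyte-like plate. Tanycyte-like cells were below astrocyte-like cells by a log2 fold of -1.18 (SE 0.26, adjusted p = 0.000803) and above endothelial-like cells by 2.11 (SE 0.35, adjusted p = 7.83e-06) and neurons by 1.56 (SE 0.23, adjusted p = 6.25e-07). Astrocyte-like cells exceeded endothelial-like cells by 3.29 (SE 0.37, adjusted p = 6.13e-09) and neurons by 2.74 (SE 0.26, adjusted p = 1.18e-10). Endothelial-like cells, at 12.2 CPM on the fasted plate and 11.6, 96.5 and 33.5 CPM on the fed plates, differed from neurons by a log2 fold of -0.55 (SE 0.36, adjusted p = 0.201), which passed the threshold without fed 2 (adjusted p = 0.0176; range 0.0176 to 0.606). The endothelial-like values came from 2 counts in 1 cell on the fasted plate, under the floor of 3 counts, and from 12, 9 and 4 counts on the fed plates. Within the neurons the AgRP-like class had 11.6 CPM on the fasted plate and 13.4, 11.9 and 11.4 CPM on the fed plates. The other neurons had 104 CPM on the fasted plate and 50.3, 84.8 and 84.1 CPM on the fed plates, above every AgRP-like plate.

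Tshr, the receptor for thyrotropin, was highest in pars tuberalis-like cells, at 743 CPM on the fasted plate and 719 CPM on fed 1. It was found in 18 of 20 such cells on the fasted plate and in 19 of 21 on fed 1, while fed 2 held no such cell and fed 3 held 1. In tanycyte-like cells Tshr stood at 217 CPM on the fasted plate, against 135, 187 and 257 CPM on the fed plates. The fasted value lay within the fed range. Tanycyte-like cells exceeded astrocyte-like cells by a log2 fold of 3.76 (SE 0.41, adjusted p = 5.01e-09), endothelial-like cells by 3.90 (SE 0.37, adjusted p = 5.93e-11) and neurons by 4.65 (SE 0.25, adjusted p = 1.19e-17). The 5 pars tuberalis markers summed to 1067 CPM in tanycyte-like cells of the fasted plate and to 221, 38.1 and 107 CPM on the fed plates, mostly Chga (988 CPM on the fasted plate, against 184, 28.1 and 88.4 CPM). The part of these transcripts in the tanycyte-like Tshr level was not tested.

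Ttr encodes transthyretin, a thyroxine carrier made in the brain by the choroid plexus. It had 382 counts in 49 cells, most of them in wells placed with AgRP-like neurons: 1.75 CPM on the fasted plate, against 122, 2.97 and 69.5 CPM on the fed plates. Of the counts in that class, 311 lay in 3 wells, 2 on fed 1 with 100 and 151 counts and 1 on fed 3 with 60 counts. Those 3 wells held no Agrp transcript, had a median of 4179 transcripts, and had 5690 CPM of 6 choroid plexus marker genes, against 19.4 CPM in the AgRP-like cells without Ttr, whose median was 29857.5 transcripts. In all other AgRP-like cells Ttr was at 1.75 CPM on the fasted plate, against 5.58, 2.97 and 7.29 CPM. The high plates were thus the plates with these wells.

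Read as counts against the background of all genes, the members were called between classes as follows. For tanycyte-like against astrocyte-like cells, 3 of 6 members were higher and 2 lower, where 25.4% of all genes tested were called, 12.5% higher and 12.9% lower. Against endothelial-like cells 4 were higher and 1 lower (43.2% called, 24.1% higher and 19.1% lower). Against neurons 4 were higher and 0 lower (54.2% called, 27.6% higher and 26.6% lower). For astrocyte-like against endothelial-like cells 2 were higher and 1 lower (37.6% called, 20.3% higher and 17.3% lower), and against neurons 3 were higher and 0 lower (49.3% called, 24.2% higher and 25.1% lower). For endothelial-like cells against neurons 1 was higher and 0 lower (58.6% called, 26.7% higher and 31.9% lower).

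Fasted and fed plates differed in tanycyte-like cells for Dio2 and Dio3os, and the Dio2 call rested on 1 well. Of 8 members tested there, 1 was higher on the fasted plate (1.84% of 10418 genes were) and 1 was lower (1.24% were), with 3.08% of all genes called. The Dio2 level of 325 CPM came from 132 counts in 42 cells, against 49, 58 and 88 counts in 49, 73 and 71 cells on the fed plates, which averaged 137 ± 18.5 CPM (SD, n = 3 plates). The log2 fold was 1.25 (SE 0.27, edgeR quasi-likelihood test, adjusted p = 0.00092). A single fasted well with 24460 transcripts held 61 of the 132 counts, or 46.2%. Without the well richest in Dio2 on each plate, the level was 186 CPM on the fasted plate, against 100, 99.1 and 128 CPM on the fed plates. The log2 fold was then 0.76 (SE 0.30) and the adjusted p was 0.172, the weakest among its alternatives (1.56e-08 to 0.172). The fasted plate remained above the fed plates, but the difference no longer passed the threshold. The share of tanycyte-like cells with Dio2 was 47.6% on the fasted plate, against 42.9%, 34.2% and 46.5% on the fed plates, and 11.9%, against 10.2%, 9.59% and 14.1%, after thinning.

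**Figure D2:**
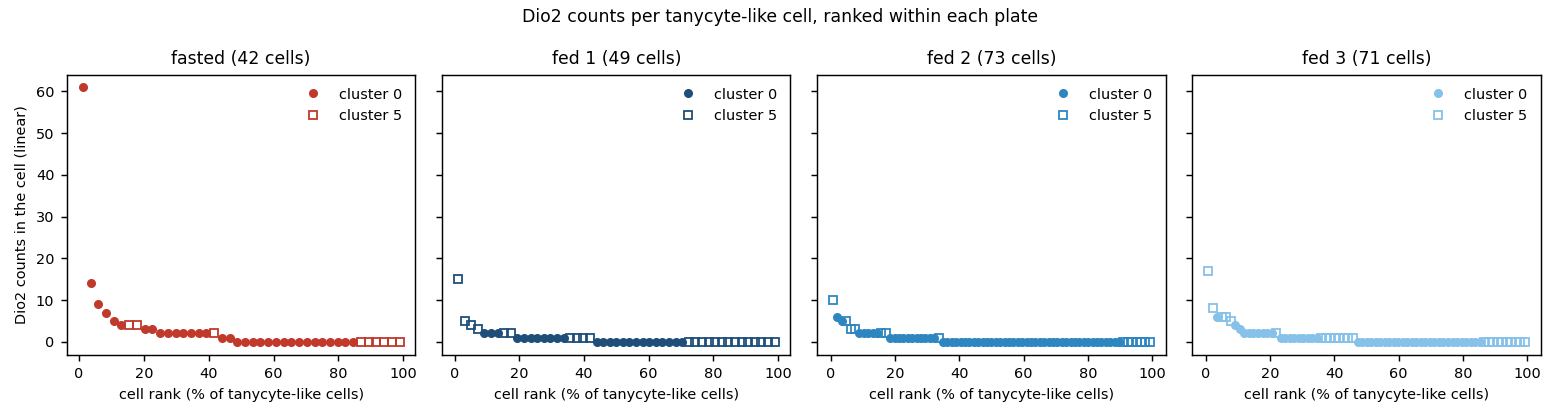
Dio2 counts in each tanycyte-like cell (linear axis), ranked from the highest within a plate and placed by rank as a percentage of the plate's cells, with cluster 0 as filled circles and cluster 5 as open squares. One fasted cell stands at 61 counts, and the highest cells of the fed plates have 15, 10 and 17.

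The tanycyte-like cells fell into 2 clusters. In the larger one, cluster 0, Dio2 was at 403 CPM on the fasted plate (33 cells), against 92.7, 87.5 and 111 CPM on the fed plates. In cluster 5 it was at 97.4 CPM on the fasted plate, from 10 counts in 9 cells, against 178, 195 and 205 CPM on the fed plates. The exact 95% interval of the fasted value in cluster 5, 46.7 to 179 CPM, overlaps those of the fed plates, and without the richest cell of each plate the cluster 5 levels were 62.9 CPM on the fasted plate, against 106, 135 and 151 CPM. The difference between the clusters was not tested because 9 cells are under the minimum of 10. Within cluster 0 alone the log2 fold was 2.04 (SE 0.30, adjusted p = 1.56e-08), and without the richest cell its levels were 219 CPM on the fasted plate, against 82.8, 74.3 and 96.4 CPM.

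**Figure D3:**
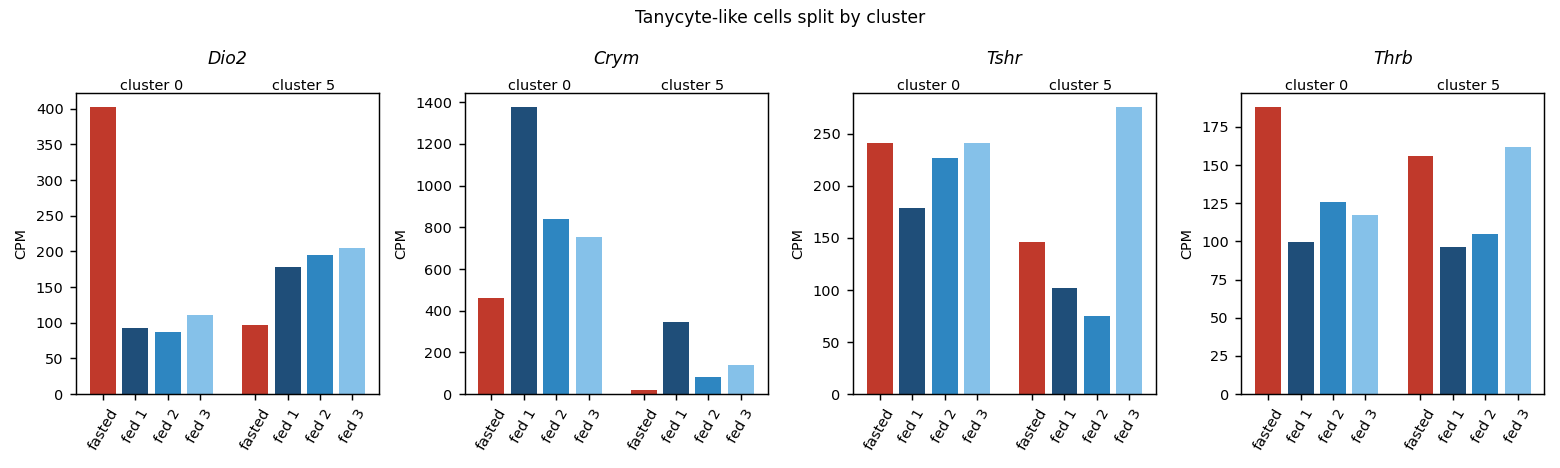
Levels in CPM (linear axes from 0) of Dio2, Crym, Tshr and Thrb in the tanycyte-like clusters 0 and 5, each bar 1 plate. Dio2 on the fasted plate is highest in cluster 0, at 403 CPM, and lowest in cluster 5, at 97.4 CPM. Crym on the fasted plate is lowest in both, but in cluster 5 its 19.5 CPM comes from 2 counts in 9 cells, under the floor of 3 counts.

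In tanycyte-like cells Dio3os was lower on the fasted plate than on the fed plates. With 0 counts, against a fed mean of 33.6 CPM, and a floor of 3 counts or 7.39 CPM, it was at least 4.54-fold lower on the fasted plate (adjusted p = 0.00295). The call was lost without fed 1, the plate with the most Dio3os (adjusted p = 0.136; range over alternatives 0.00273 to 0.136). Dio3, its neighbour, had a log2 fold of -1.69 (SE 1.35, adjusted p = 0.59). Crym had a log2 fold of -0.87 (SE 0.28) and an adjusted p of 0.0515, which passed the threshold within cluster 0 (-1.08, adjusted p = 0.0127, with 459 CPM on the fasted plate, against 1377, 840 and 752 CPM) and without the wells richest in Dio2 (adjusted p = 0.0415; range 0.0127 to 0.196). The remaining 4 tested members had log2 folds of 0.14 for Tshr (SE 0.28, adjusted p = 0.862), 0.58 for Thrb (SE 0.30, adjusted p = 0.327), 0.28 for Thra (SE 0.31, adjusted p = 0.718) and 0.41 for Slco1c1 (SE 0.72, adjusted p = 0.839). Xist without Y-linked transcripts was seen in 83.3% of tanycyte-like cells of the fasted plate, against 4.08%, 32.9% and 15.5% on the fed plates, and the part of sex in these differences was not tested.

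**Figure D4:**
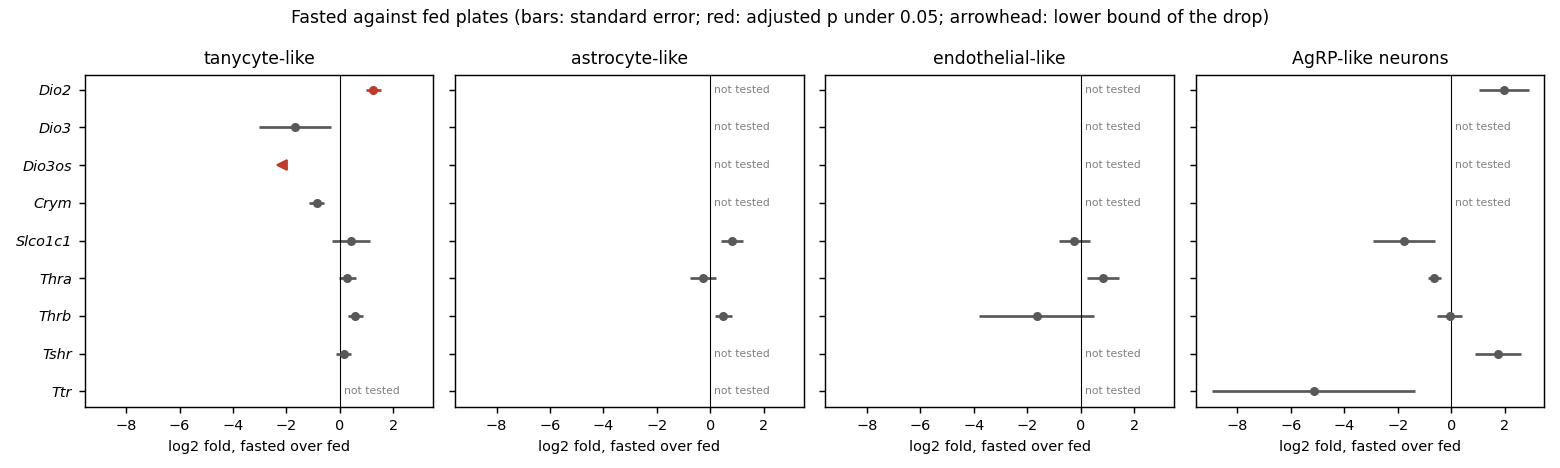
Log2 fold of the fasted plate over the fed plates for each gene in 4 classes, with standard errors as bars, red where the adjusted p is under 0.05 and "not tested" where counts were too low. The arrowhead for Dio3os marks the least drop that 3 counts allow (log2 -2.18), and Dio2 at 1.25 is the other called value.

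In the other classes no member passed the test between fasted and fed plates. Of 6 members tested in AgRP-like neurons, 0 were called, where 5.04% of genes were called. Thra there had 64.0 CPM on the fasted plate, against 84.6, 106 and 116 CPM on the fed plates. The fasted plate was the lowest of the 4, with a log2 fold of -0.63 (SE 0.24, adjusted p = 0.129), and without fed 1 the adjusted p was 0.0201 (range 0.0201 to 0.521). Nr1d1, the overlapping gene, had a log2 fold of -1.49 (adjusted p = 0.00114), and its part in the Thra counts was not tested. Dio2 in these neurons had 8.73 CPM on the fasted plate, against 0.925, 1.78 and 5.18 CPM (log2 fold 1.97, SE 0.93, adjusted p = 0.246). Ttr had a log2 fold of -5.15 (SE 3.81, adjusted p = 0.631), which without fed 2 reached an adjusted p of 1.75e-21 and without the 3 wells of at least 5 Ttr counts was -1.48 (adjusted p = 0.52; range 1.75e-21 to 0.788).

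Astrocyte-like and endothelial-like cells each had 3 members high enough to test, Slco1c1, Thra and Thrb, and 0 were called (0.641% and 0.241% of genes were). The log2 fold of Slco1c1 was 0.82 in astrocyte-like cells (SE 0.42, adjusted p = 0.65) and -0.24 in endothelial-like cells (SE 0.58, adjusted p = 0.972). Over all neurons 0 of 7 were called (0.258%). The difference between classes in the fasting effect, tested as an interaction with tanycyte-like cells, was called for 0 of 6 members in astrocyte-like cells (0.0557% of genes were called), endothelial-like cells (0.0186%) and neurons (0.0186%). For Dio2 that difference was 1.20 in astrocyte-like cells (SE 0.95, adjusted p = 0.947), so an effect particular to tanycyte-like cells was not shown.

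Sums over all kept cells also depend on the make-up of each plate, whose part was not tested. Tanycyte-like cells held 1013 of 1163 Crym counts, 327 of 416 Dio2 counts and 44 of 50 Dio3os counts. They gave 405750 of 5092519 transcripts on the fasted plate, against 347787 of 5529965, 498715 of 4398233 and 576940 of 4705000 on the fed plates. Summed over all kept cells, Tshr was at 112 CPM on the fasted plate, against 40.3, 29.1 and 41.0 CPM on the fed plates. The fasted plate stood well above the others, and pars tuberalis-like cells held 420 of its 571 Tshr counts. The log2 fold was 1.59 (SE 0.26) with an adjusted p of 0.513, and 0 of 18241 genes were called by edgeR (0% called, 1500 genes at an unadjusted p under 0.05, and 80 genes called by DESeq2). Without fed 1 the adjusted p was 5.75e-07, without the low-count filter 9.9e-07 and with DESeq2 0.0408. Without pars tuberalis-like cells the log2 fold was 0.31 (SE 0.56, adjusted p = 0.896; range over alternatives 5.75e-07 to 0.942). None of the 9 members was called over all kept cells, but besides Tshr, Crym passed the threshold without the low-count filter (log2 fold -1.29, adjusted p = 0.00369) and without fed 1 (-1.40, adjusted p = 0.0145). Dio2 (0.89, adjusted p = 0.0113) and Dio3os (-3.88, adjusted p = 0.03) passed it without fed 1.

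The members were also set beside 52 other genes of thyroid hormone transport, deiodination, receptor partners, targets and the thyrotropin-releasing axis. Of the 41 tested between classes, 6 were higher and 8 lower in tanycyte-like than in astrocyte-like cells, with a median log2 fold of -0.07 against 0.05 over all genes, of which 12.5% were called higher and 12.9% lower. Against endothelial-like cells 6 were higher and 7 lower (median -0.21 against 0.09; 24.1% and 19.1% of all genes), and against neurons 11 were higher and 9 lower (median 0.18 against 0.03; 27.6% and 26.6% of all genes). Endothelial-like cells exceeded neurons for 20 of the 41 and were lower for 11, with a median of 0.59 against -0.11, where 26.7% of all genes were higher and 31.9% lower. Astrocyte-like cells exceeded endothelial-like cells for 7 and were lower for 7 (median -0.17 against 0.06, with 20.3% and 17.3% of all genes), and exceeded neurons for 11 and were lower for 9 (median 0.36 against -0.02, with 24.2% and 25.1% of all genes).

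Among the transporters, Slco1a4 and Slco2b1, which encode organic anion transporters, and Slc7a5, a subunit of the amino acid transporter LAT1, were lower in tanycyte-like than in endothelial-like cells by log2 folds of -7.97, -6.02 and -5.59, and in astrocyte-like than in endothelial-like cells by -7.62, -7.12 and -3.67. Endothelial-like cells exceeded neurons by 8.84 for Slco1a4, 6.88 for Slco2b1 and 5.52 for Slc7a5. Slco3a1 was higher in tanycyte-like than in endothelial-like cells by 1.64 and than in astrocyte-like cells by 1.76, and lower in astrocyte-like cells than in neurons by -2.33; its 2 tanycyte-like calls, and the -1.93 of Slc7a5 in tanycyte-like against astrocyte-like cells, were each lost under at least 1 alternative. Trhde, which encodes the ectoenzyme that degrades thyrotropin-releasing hormone, averaged 150 ± 44.3 CPM in tanycyte-like cells (SD, n = 4 plates) and 6.46 ± 1.03 CPM in astrocyte-like cells (n = 3), a log2 fold of 4.44, and its folds over endothelial-like cells and neurons were 4.14 and 2.97.

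The listed hormone targets were higher in tanycyte-like cells in some cases and lower in others. Hr, listed with the receptor partners and cofactors, and Pgpep1, listed with the axis genes, are given beside them. Thrsp, a hormone-responsive gene of lipid synthesis, averaged 295 ± 29.2 CPM in tanycyte-like cells (n = 4) and had no count in endothelial-like cells, which makes it at least 137-fold higher in tanycyte-like cells. Itih3 was lower in tanycyte-like than in astrocyte-like cells by a log2 fold of -8.33, Hr, a corepressor gene, by -4.50 and Aldh1a1, which encodes a retinaldehyde dehydrogenase, by -2.87. Astrocyte-like cells exceeded neurons by 8.51 for Itih3, 3.82 for Hr, 4.75 for Aldh1a1 and 2.09 for Klf9, a transcription factor gene induced by triiodothyronine, and exceeded endothelial-like cells by 6.05 for Itih3 and 5.51 for Hr. Sema7a, which encodes a membrane-anchored semaphorin, and Gbp3, a guanylate-binding protein gene, were lower in tanycyte-like than in endothelial-like cells by -6.26 and -4.55, in astrocyte-like than in endothelial-like cells by -5.81 and -5.10, and higher in endothelial-like cells than in neurons by 6.89 and 6.76. Against neurons, Thrsp was higher by 4.98 in tanycyte-like cells and by 2.67 in astrocyte-like cells, while Nrgn, which encodes the calmodulin-binding neurogranin, was lower in tanycyte-like cells by -1.58. Rasd2 was lower than in neurons by -2.07 in tanycyte-like and -2.21 in astrocyte-like cells. Flywch2 was higher in tanycyte-like than in endothelial-like cells by 3.79, and lower than in neurons by -2.00 in astrocyte-like and -3.98 in endothelial-like cells. Aldh1a1 was higher in endothelial-like cells than in neurons by 3.16, and Pgpep1, which encodes a pyroglutamyl peptidase, was higher in astrocyte-like cells than in neurons by 1.92. With no Thrsp count in endothelial-like cells, astrocyte-like cells were at least 21.2-fold higher and neurons at least 4.46-fold higher, the call against neurons being lost without fed 1.

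Receptor partners and coregulators were also called between classes. Rxrg, a retinoid X receptor gene, was lower than in neurons by -2.87 in tanycyte-like cells, -2.20 in astrocyte-like cells and -4.31 in endothelial-like cells, the astrocyte-like call being lost without the fasted plate. Rxra and Tbl1xr1, of which Tbl1xr1 encodes a part of the corepressor complex, were higher in tanycyte-like cells than in neurons by 1.62 and 1.73. Ncoa3, a coactivator gene, was lower than in endothelial-like cells by -1.51 in tanycyte-like cells and -2.70 in astrocyte-like cells. Among calls lost under at least 1 alternative were those of Flywch2 (1.81) and Pgpep1 (-1.39) in tanycyte-like against astrocyte-like cells, and of Gbp3 (2.21) and Aldh1a1 (1.88) in tanycyte-like cells against neurons.

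Between fasted and fed plates the list gave 1 higher and 0 lower of 36 tested in tanycyte-like cells (median 0.19 against -0.03 over all genes, of which 3.08% were called) and 1 higher and 0 lower of 46 in AgRP-like neurons (median 0.05 against -0.02, with 5.04% of all genes called). The first was Rxra, a partner of the thyroid hormone receptors, at 131 CPM on the fasted plate, against 31.6, 60.2 and 55.5 CPM (log2 fold 1.36, SE 0.35, adjusted p = 0.00882), a call lost without fed 1 (adjusted p = 0.0569; range over alternatives 0.00427 to 0.0569, with none given by DESeq2). The other was Ncoa2, a receptor coactivator gene, at 336 CPM on the fasted plate, against 144, 188 and 148 CPM (log2 fold 1.10, SE 0.20, adjusted p = 0.000564). The list gave 0 calls of 48 in all neurons (0.258% of all genes), 0 of 19 in astrocyte-like cells (0.641%), 0 of 21 in endothelial-like cells (0.241%) and 0 of 49 over all kept cells (0%). In all neurons Ncoa2 had a log2 fold of 0.75 (SE 0.20, adjusted p = 0.208) and passed the threshold without fed 1 (0.68, adjusted p = 0.000527).

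**Figure D5:**
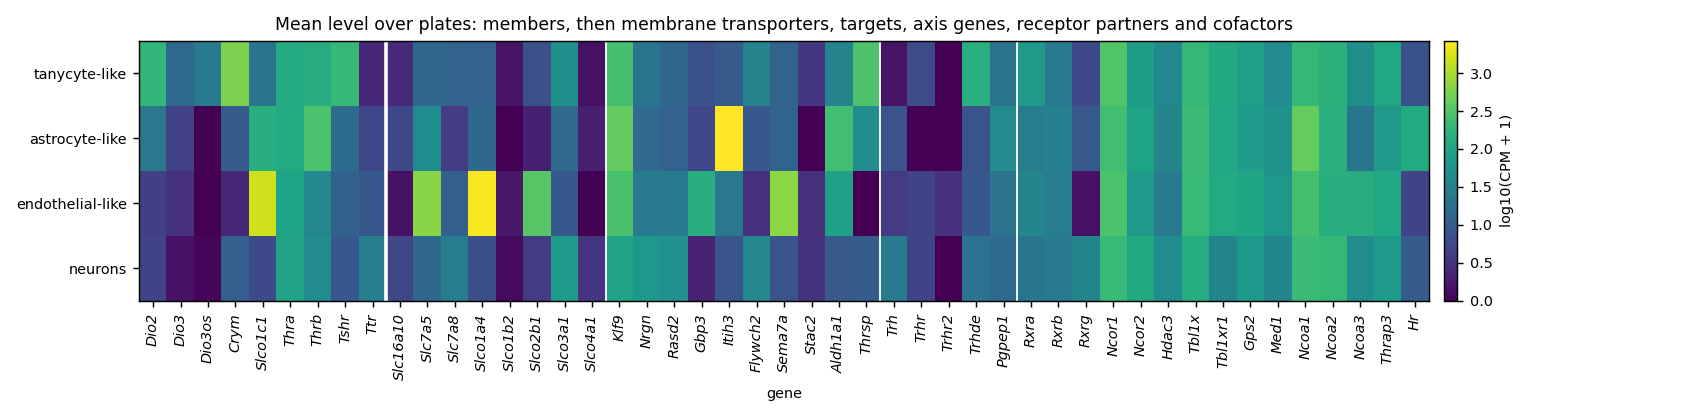
Mean level over plates, as log10(CPM + 1) in colour, of the 9 members and of listed transporters, targets, axis genes and receptor partners in 4 classes. Crym is bright in tanycyte-like cells, Slco1c1 and Slco1a4 in endothelial-like cells and Itih3 in astrocyte-like cells, while Thra is even.

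Detection was also counted in single tanycyte-like cells over all plates. Of 235 cells, 104 held Tshr and Crym, 41 held Tshr without Crym, 48 held Crym without Tshr and 42 held neither. For Dio2 and Tshr, 71 held both, 28 held Dio2 alone, 74 held Tshr alone and 62 held neither. Cells with both members had more transcripts, with medians of 8192 against 4716.5 for Tshr and Crym and 9210 against 5138 for Dio2 and Tshr, so depth moves with these counts over all plates and its part was not tested. On fed 1 the order was the other way for Tshr and Crym, with a median of 6327.5 transcripts in cells with both and 7554.5 in cells with neither.

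The genes whose levels over the 26 clusters were most like those of each member were named by Pearson's r of log2(CPM + 10) over 9839 genes. These points share plates and cells, and r is a description. For Dio2 they were Lgr6 (r = 0.86), Lix1, Col25a1, Frzb and Thrsp, the last at 0.80. Of these, Col25a1 and Frzb are tanycyte markers used to name the class. For Crym they were Gpr50 (r = 0.84), Rax, Frzb, Col25a1 and Lhx2, all 5 of them tanycyte markers used to name the class. For Slco1c1 they were Adgrl4 (r = 0.95), Flt1, St6galnac2, Slco1a4 and Ptprb, of which Flt1 is an endothelial marker used to name that class. For Thrb they were Trpm3 (r = 0.81), Gpc6, Glis3, Epb41l5 and A330033J07Rik, and for Tshr Lrriq1 (r = 0.77), Rfx2, Adgb, Dnah11 and Ces1d. For Thra they were Nsmf (r = 0.79), Nckap1, Keap1, Naxd and Rnd2. For Ttr they were Cdon (r = 0.62), Higd2a, Slc5a6, Tnfrsf11b and Mal2. Of the 382 Ttr counts, 311 lay in 3 wells without Agrp transcripts, all placed in the same AgRP-like cluster. The part of these wells in the Ttr ranking was not tested. Dio3 and Dio3os were too scarce for this ranking.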

How the data were processed

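Values were deposited by the authors as tables of genes by 384 wells. The values are expected counts as deposited by the authors: the values themselves show UMI counts corrected for collisions among 4096 possible UMIs (every one traces back to a whole count within 1e-06). They were rounded to whole numbers here before any test. Per the submitters' processing notes, reads were handled with Trim Galore and STAR on mm10; the counting tool, its annotation and its strand setting are given in no source used here. Spike-ins were removed. Deposited totals per plate, spike-ins included, were 6.82304e+06 (fasted) and 6.81978e+06, 5.93005e+06 and 6.22347e+06 (fed 1 to 3); kept cells held 5092519 and 5529965, 4398233 and 4705000 transcripts.

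Wells of at least 1000 transcripts and under 30% mitochondrial transcripts were clustered with scanpy 1.11.5 (2000 variable genes, 30 components, 10 neighbours, Leiden resolution 1.5 with leidenalg 0.10.2), with 61 genes held out, the members included. A cluster needed 3 markers at a log2 fold of 1 to be named; neurons needed 40 transcripts per 10000 from 9 markers, a limit set after seeing the data. Doublets were not called. Counts were summed per plate and class (at least 10 cells) and tested with edgeR 4.0.16 (TMM, filterByExpr, robust quasi-likelihood, Benjamini-Hochberg, 0.05) in R 4.3.3, with DESeq2 1.42.0 as an alternative; class contrasts used 1 joint fit with plate as a block, since the 4 classes of a plate come from the same library. Alternatives were another scaling, no low-count filter, wells of at least 2000 transcripts, Leiden resolutions 1.0 and 2.0, leaving out each plate, and others chosen after seeing the data. The scripts were tested on simulated data. Named are all members, listed genes called in a comparison (up to 10, by size) and the 5 genes most like each member. Counts over the list of related genes include a gene that is not reported here by name. The members and lists were chosen with earlier results of these data known. Gene positions are GENCODE vM21.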

Additional observations from a re-analysis of the deposited data

Results flagged for a closer look

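Dio2 on the fasted plate lay above all fed plates in one tanycyte-like cluster and below them in the other. In cluster 0 it was at 403 CPM on the fasted plate, against 92.7, 87.5 and 111 CPM on the fed plates, and in cluster 5 at 97.4 CPM on the fasted plate, against 178, 195 and 205 CPM. The exact 95% interval of the fasted value in cluster 5, 46.7 to 179 CPM, overlaps that of fed 1, 124 to 247 CPM. Without the richest cell of each plate the cluster 5 levels were 62.9 CPM on the fasted plate, against 106, 135 and 151 CPM. The difference was not tested, since the fasted plate had 9 cells and 10 counts in cluster 5. In cluster 0 a single cell held 61 of the 122 fasted counts.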

How the results depend on the processing

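Of 884 values recomputed for members, 862 kept their side of the threshold, 17 passed it where they had not and 5 lost it. The 862 include alternatives that used the same cells as the main setting and so could not differ. Leiden resolution 2.0 did so in all classes compared. In fits of fasted against fed plates, so did resolution 1.0 in tanycyte-like cells and all neurons. The same held for leaving out fed 1 in astrocyte-like cells and for wells of at least 2000 transcripts in AgRP-like neurons. No value called in either setting turned its sign, though folds called in neither could, such as Slco1c1 in all neurons (-0.89 to 0.81). No paired analysis was possible for fasted against fed plates because there is 1 fasted plate. Class comparisons have plate as a block; With no replicate block, the call that differed among members was Slco1c1, tanycyte-like over neurons (log2 fold 1.98, adjusted p = 0.00318). Counts of all genes called between fasted and fed plates moved as follows. In tanycyte-like cells, 321 became 176 without the low-count filter, 49 with DESeq2, 163 in cluster 0 only and 161 to 239 leaving out a fed plate. In AgRP-like neurons, 662 became 197 with DESeq2. Over all kept cells, 0 became 513 without the filter, 80 with DESeq2 and 0 to 1919 leaving out a plate, the most without fed 1. In all neurons, 39 became 403 without the filter, 61 with DESeq2 and 101 to 1146 leaving out a plate, the most without fed 1. In astrocyte-like cells, 34 became 16 without the filter and 1 with DESeq2. In endothelial-like cells, 12 became 1 with DESeq2, 2 at Leiden resolution 1.0, 68 in cluster 6 only and 2 to 76 leaving out a plate, the most without fed 1. For interactions with tanycyte-like cells, 6 in astrocyte-like cells became 3 at resolution 1.0 and 1 to 14 leaving out a plate; 2 in endothelial-like cells became 8 without the filter, 1 with wells of at least 2000 transcripts, 23 in cluster 6 only and 0 to 15 leaving out a plate; 2 in neurons became 8 without the filter and 1 to 31 leaving out a plate. The cause of these moves was not tested. DESeq2 gave no adjusted p for Dio2 and Dio3os in tanycyte-like cells. Dio3, Dio3os and Ttr had 38, 50 and 382 counts in all and were too low for the joint class fit.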
